A study of Mus musculus with 2 samples.

Results

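The 10 genes described here build and cross-link elastic fibres: the elastin gene Eln, the fibrillins Fbn1 and Fbn2, the fibulins Fbln1, Fbln2 and Fbln5, the microfibril-associated Mfap4 and Mfap5, the latent TGF-beta binding protein gene Ltbp2 and the lysyl oxidase gene Lox. They were taken by symbol from the 28001 features of the count tables, where all 10 were present. The tables came from regenerating digit tips of adult mice aged 10 to 12 weeks, taken 14 days after amputation and profiled by droplet single-cell RNA sequencing with unique molecular identifiers (UMIs). One library came from Lmx1bCreERT2;R26-LSL-TdT mice and 1 from PdgfraCreERT;R26-LSL-TdT mice, named here the Lmx1b and the Pdgfra library.

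Both lines carry a Rosa26 reporter that makes the red fluorescent protein tdTomato once a tamoxifen-activated Cre has removed its stop cassette, and both groups were given tamoxifen at 3 mg per day over 4 days, ending 10 days before amputation. Cre in the first line is driven by Lmx1b, a transcription factor of dorsal limb mesenchyme, and in the second by Pdgfra, a growth factor receptor of many fibroblasts. No uninjured or tamoxifen-free sample was analysed here, the number of mice behind each library is not given in the labels, and there was 1 library per line. No test across animals was therefore possible, and mouse line, animal and library cannot be told apart. All intervals below are 95% intervals for counting error only.

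An elastic fibre has a core of cross-linked elastin laid onto a scaffold of fibrillin microfibrils. Fibulins and microfibril-associated proteins connect elastin to that scaffold, lysyl oxidases cross-link it, and fibrillins and latent binding proteins also hold TGF-beta and BMP growth factors in the matrix. The fibres give recoil to arteries, skin and ligaments, while Lox also cross-links fibrillar collagen in bone, cartilage and tendon.

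In the GENCODE annotation of the build used for the files (mm10, GRCm38), all 10 are protein-coding genes. Eln lies at chr5:134702593-134747323 on the minus strand, Fbn1 at chr2:125300594-125507993 on the minus strand and Ltbp2 at chr12:84783212-84876532 on the minus strand. Fbln2 (chr6:91212455-91272540) and Mfap5 (chr6:122505845-122529290) share a chromosome and the plus strand, and Mfap4 lies at chr11:61485431-61488900 on the plus strand. Eln, Fbn1, Fbn2, Mfap4, Ltbp2 and Lox each overlap another annotated gene on the opposite strand, which for 5 of them is also a feature of the count tables. Whether strand was used in counting is not given in the sources used here, so reads of such pairs may not be fully separable. The counts of Fbln1, Fbln2, Fbln5 and Mfap5 have no such neighbour.

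The upstream regions of Fbln1 and Fbln5 are shown because these fibulins, close in family, were highest in different cells. RefSeq windows on GRCm38.p6 were at hand for 5 of the 10 genes, and these are the 250 bases before the start of Fbln1 (chr15:85205699-85205948, plus strand) and of Fbln5 (chr12:101819120-101819369, minus strand), neither of which holds an annotated exon. Capitals mark matches on either strand to GGGCGG (the GC box), TATAAA (the TATA box) and CAGAC (a SMAD-type element).
Fbln1: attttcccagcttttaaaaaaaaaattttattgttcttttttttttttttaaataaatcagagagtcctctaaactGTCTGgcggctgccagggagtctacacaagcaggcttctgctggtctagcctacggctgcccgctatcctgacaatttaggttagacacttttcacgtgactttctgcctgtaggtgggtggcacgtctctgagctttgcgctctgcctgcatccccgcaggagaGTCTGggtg
Fbln5: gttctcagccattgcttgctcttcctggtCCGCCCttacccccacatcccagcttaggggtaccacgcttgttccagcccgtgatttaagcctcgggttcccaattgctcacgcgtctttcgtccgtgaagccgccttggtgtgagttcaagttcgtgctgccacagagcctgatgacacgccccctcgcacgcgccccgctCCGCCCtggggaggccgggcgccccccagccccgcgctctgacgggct
Fbln1 held 2 matches to CAGAC and none to the other 2 motifs, and Fbln5 held 2 matches to GGGCGG and none to the others. Among all 32851 windows of this length, 42.2% held CAGAC, 32.7% held GGGCGG and 12.4% held TATAAA, so each match is a common one. The 2 windows also differed in base composition, with 46.4% G and C for Fbln1 and 65.2% for Fbln5.

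After filtering, the Lmx1b library held 2744 cells with a median of 17084 UMIs and the Pdgfra library 2309 cells with a median of 9774. The deposited totals were 66867027 UMIs over 5991 barcodes and 49084751 over 5032. Clusters were made without the 10 genes and without 45 further genes of elastic fibre assembly, and were named from marker genes. The mesenchymal class, bone lineage included, had 994 cells (36.2%) in the Lmx1b and 579 cells (25.1%) in the Pdgfra library, with median depths of 25193 and 26262 UMIs, and all 11 of its markers were detected. Pericytes and smooth muscle (called mural cells below) numbered 353 and 309, with 14900 and 10610 UMIs, and endothelial cells 604 and 277, with 12523.5 and 11621. Clusters of 195 and 473 cells could not be named, and a mesenchymal subcluster led by endothelial markers, of 10 and 11 cells, was set aside. The libraries shared 10 barcodes, of which 1 passed the filters in both.

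Of the 10 genes, 8 were higher in mesenchyme than in the other cells together, and elastin was not among them. The other cells included the unnamed clusters and the set-aside subcluster. Levels are a gene's UMIs per 1000000 UMIs summed over a class (CPM). A gene was called higher or lower at 2-fold or more with an interval of the ratio clear of 1, among genes with at least 5 CPM over both sides together. Against all other cells, these 8 were called higher in both libraries (Fbn1, Fbn2, Fbln1, Fbln5, Mfap4, Mfap5, Ltbp2 and Lox), where 6.83% (Lmx1b) and 6.5% (Pdgfra) of all tested genes were called higher. Eln was lower in the Lmx1b mesenchyme, as were 13.2% of tested genes, and no member was lower in the Pdgfra mesenchyme (12.4%). Fbln2 was not called in either library. The median difference over all genes was -0.16 log2 in both libraries, against 2.76 and 2.35 over the 10.

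**Figure D1:**
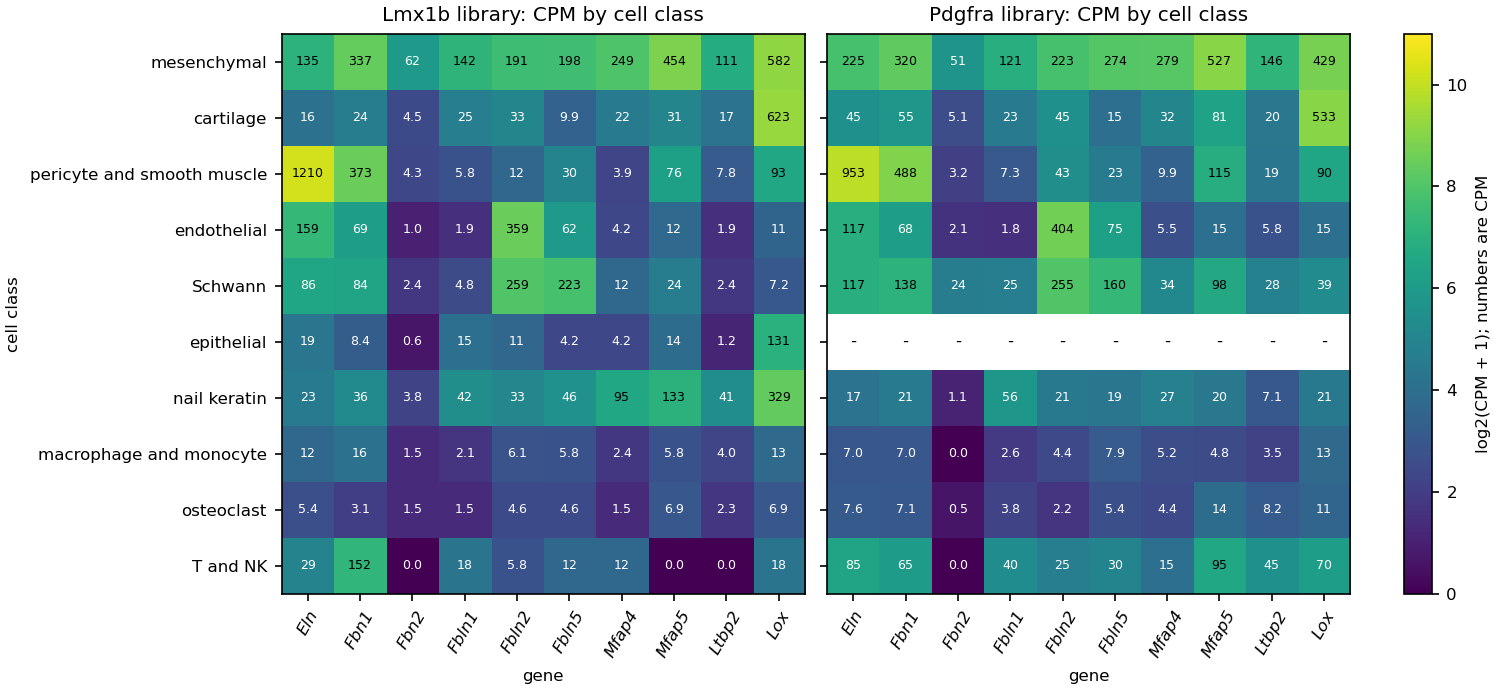
Summed level of each gene (columns) in each cell class of at least 20 cells (rows), for the Lmx1b library (left) and the Pdgfra library (right); colour is log2(CPM + 1), the numbers are CPM, and a dash marks a class with too few cells. Eln is brightest in pericytes and smooth muscle, Fbln2 in endothelium and Lox in cartilage and mesenchyme.

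Eln, the elastin gene, was highest in mural cells, at 1209.6 CPM in the Lmx1b and 953 CPM in the Pdgfra library. Endothelium had 159 and 117 CPM, and mesenchyme had 135 and 225. Macrophages and monocytes, taken as cells that should lack the gene, had 12.2 and 6.98 CPM. The part of free RNA in this was not tested. The ratio of mesenchyme to mural cells was 0.11 (0.11 to 0.12) and 0.24 (0.22 to 0.25), a call of lower shared with 9.6% and 8.71% of tested genes. Against all other cells the ratio for mesenchyme was 0.48 (0.46 to 0.49) in the Lmx1b and 1.02 (0.98 to 1.06) in the Pdgfra library. With cells kept only from 1000 genes up and to 5% of UMIs mitochondrial, the Lmx1b ratio turned to 1.29, with 47 mural cells left of 353 and 1021 CPM of Eln in them.

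The microfibril scaffold genes split between 2 patterns. Fbn1, the main adult fibrillin, stood at 337 CPM in Lmx1b and 320.1 CPM in Pdgfra mesenchyme, close to 373 and 488 CPM in mural cells, and was at 68.5 and 68.0 CPM in endothelium. Its ratio of mesenchyme to mural cells was 0.90 (0.86 to 0.95) and 0.66 (0.62 to 0.69), so neither library gave a call. Fbn2, the fibrillin best known from development, had 61.5 and 51.0 CPM in mesenchyme, and from 0 to 5.14 CPM in the other named classes of at least 20 cells, except for 23.5 CPM in Schwann cells of the Pdgfra library. The unnamed clusters of the Lmx1b library held 0 Fbn2 UMIs, and those of the Pdgfra library 67 (65.3 CPM), of which 56 were in a single cluster of 93 cells. The set-aside subcluster had 133 CPM (97.2 to 177) and 58.7 CPM (44.2 to 76.4). No Fbn2 UMI was found in 120 Pdgfra macrophages and monocytes, which allows a share of cells with a UMI of up to 2.5%. Mural cells and endothelium had little Fbn2, at 4.27 and 3.21 CPM and at 1.01 and 2.07 CPM.

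Mfap4 and Mfap5, whose products bind fibrillin, were both highest in mesenchyme. Mfap4 had 249 and 279 CPM there against 3.90 and 9.92 CPM in mural cells, a ratio of 63.9 (41.7 to 103) and 28.1 (20.1 to 40.7). Mfap5 had 454 and 527 CPM against 75.6 and 115 CPM in mural cells, where a UMI was found in 15% and 26.2% of cells. Nail keratin cells were second in the Lmx1b library, at 94.7 CPM of Mfap4 and 133 CPM of Mfap5. In the Pdgfra library the second class was Schwann cells for Mfap4, at 33.6 CPM, and mural cells for Mfap5. Ltbp2, a fibrillin-binding relative of the latent TGF-beta binding proteins, had 111 and 146 CPM in mesenchyme and 7.81 and 18.7 CPM in mural cells. After mesenchyme it was highest in nail keratin cells of the Lmx1b library (41.0 CPM) and in T and NK cells of the Pdgfra library (44.9 CPM, 33 cells). Against mural cells, 8 of the 10 were higher in each library, where 11.2% of tested genes were in both. Those 8 were Fbn2, all 3 fibulins, Mfap4, Mfap5, Ltbp2 and Lox.

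The 3 fibulins were spread differently over the classes. Fbln1 was highest in mesenchyme, at 142 and 121 CPM, with 5.76 and 7.29 CPM in mural cells and 1.91 and 1.84 CPM in endothelium. Nail keratin cells were second for Fbln1 in both libraries, at 42.2 and 55.7 CPM. Fbln2 was highest in endothelium, at 359 CPM in the Lmx1b and 404 CPM in the Pdgfra library, then in Schwann cells, at 259 and 255 CPM, and then in mesenchyme, at 191 and 223 CPM. Fbln5, which carries elastin to the microfibrils, had 198 and 274 CPM in mesenchyme and 223 and 160 CPM in Schwann cells, with 61.6 and 75.1 CPM in endothelium. The interval of Schwann cells in the Lmx1b library (180.2 to 274) held the mesenchymal level, and in the Pdgfra library the interval of Schwann cells (138 to 184) lay below it. There were 36 and 100 Schwann cells. Schwann cells of both libraries also carried mesenchymal marker transcripts, with 1 of the 11 markers at 0 in the Lmx1b library, none in the Pdgfra library and summed levels of 8294 and 14693 CPM against 111362 and 90165 in mesenchyme, and the part of this in the Schwann values was not tested. Against endothelium, 8 of the 10 were higher in mesenchyme in each library (14.5% and 15.1% of tested genes), the exceptions being Eln and Fbln2, and 0 were lower (16.0% and 16.6%). The Fbln2 ratio was 0.53 (0.51 to 0.56) and 0.55 (0.52 to 0.59).

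Among the classes, Lox, the cross-linking enzyme, was highest in cartilage. It had 623 and 533 CPM in cartilage, 582 and 429 CPM in mesenchyme, and 93.5 and 90.2 CPM in mural cells. Bone-lineage subclusters of mesenchyme, described below, had more Lox than cartilage. The subcluster led by Dkk1 and Dmp1 had 1083 and 982 CPM, and that led by C1qtnf3 and Adamts18 had 775 and 716 CPM. The cartilage class differed in depth between the libraries, with medians of 42834 and 5605 UMIs. When cells were thinned to 5000 UMIs, Lox was detected in 90.8% and 89.6% of cartilage cells and in 74.1% and 74.2% of mesenchymal cells. Thinning left 130 of 163 and 67 of 125 cartilage cells, and the unthinned shares were 91.4% and 62.4%. Of the 67, 62 were of cluster 1. Cluster 25, which kept 5 of its 47 Pdgfra cells, had 140 CPM of Lox against 550.1 CPM in cluster 1 of that library. Nail keratin cells had 329 CPM of Lox in the Lmx1b and 20.8 CPM in the Pdgfra library, in 17.1% and 13.3% of cells, so its UMIs came from a minority of the cells.

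Shares of cells with a UMI were compared after thinning each cell to 5000 UMIs. In thinned cells, at least 1 UMI of Fbn1 was found in 57.4% and 61.3% of mesenchymal and in 71.1% and 86.9% of mural cells, against 4.13% and 4.50% of macrophages and monocytes. Eln was found in 26% and 42.4% of mesenchymal, 57.8% and 66.5% of mural and 34.5% and 35.9% of endothelial cells, against 4.96% and 3.6% of macrophages and monocytes. The unthinned Eln shares in mesenchyme were 49.9% and 67.9%. A thinned mesenchymal cell carried a median of 4 (Lmx1b) and 5 (Pdgfra) of the 10 genes, a thinned mural cell 2 in both, and a thinned macrophage or monocyte 0 in both. T and NK cells, also taken as cells that should lack these genes, carried a median of 0 (Lmx1b, 16 thinned cells) and 1 (Pdgfra, 19 thinned cells). None of the 10 was found in 56.25% and 47.4% of them, against 74.4% and 72.1% of macrophages and monocytes. Thinning left 907 of 994 and 519 of 579 mesenchymal cells, but 287 of 353 and 206 of 309 mural cells, with 0 of 52 and 1 of 86 cells of the shallow mural cluster 21. Mfap4 in mural cells, at 1.39% and 2.91%, was at the macrophage level of 2.48% and 2.70%, and Fbn2 in mural cells, at 1.39% and 0.971%, was close to 0.826% and 0% of macrophages and monocytes.

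The walls of the vessels were not uniform. Mural cells fell into 4 clusters, numbered 10, 11, 19 and 21, and the endothelium into 4. Mural cluster 10, led by the contractile genes Actg2 and Lmod1, had 1456 CPM of Eln in the Lmx1b and 937 CPM in the Pdgfra library. Mural cluster 19, led by the inflammatory genes Il6 and Cxcl10, had 1522 and 1061 CPM. Mural cluster 11, led by the myostatin gene Mstn and the adrenergic receptor gene Adra2c, had 14.4 CPM (7.68 to 24.7) from 60 cells of the Lmx1b library. Only 3 of its 63 cells were in the Pdgfra library, so the low Eln there rests on 1 library. All 10 mural markers were present in it, with Acta2 (actin of smooth muscle) at 13649 CPM, Myh11 (smooth muscle myosin) at 2044 and Rgs5 at 18461, against 11592, 1099 and 14642 CPM in cluster 10 of that library. Fbn1 there was 155 CPM (131 to 183) against 429 in cluster 10, and Fbln5 84.3 CPM against 19.7. Cells of cluster 11 had Fbn1 and Fbln5 but almost no Eln. The mural markers Abcc9 and Kcnj8, subunits of a potassium channel, were low in it, with Abcc9 at 47.7 CPM and Kcnj8 at 59.9 against 322 and 361 in cluster 10. Cluster 21 had a median of 1428.5 UMIs per cell and 623 and 677 CPM of Eln.

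Fbln2, Fbln5 and Eln also differed along the endothelium. Cluster 17, led by Gkn3 and Gja5 (Gja5 is a connexin of arterial endothelium), had 762 and 701 CPM of Fbln2, 404 and 380 CPM of Fbln5 and 383 and 202 CPM of Eln. Cluster 6, led by Ackr1 and Selp, which mark venules, had 477 and 604 CPM of Fbln2, 62.7 and 83.4 CPM of Fbln5 and 287 and 199 CPM of Eln. Cluster 3, led by Kcne3 and Gpihbp1, genes of capillary endothelium, had 238 and 300 CPM of Fbln2, 21.7 and 23.6 CPM of Fbln5 and 54.7 and 76.7 CPM of Eln. Fbln5 was therefore highest in cluster 17 in both libraries, with intervals clear of those of clusters 3 and 6. All 10 mural markers were found in the endothelial class, with summed levels of 643 and 541 CPM against 38113 and 26931 CPM in mural cells. Mcam alone, an adhesion gene that endothelium is also known to express, made up 531 and 383 CPM, and the other 9 summed to 112 and 158 CPM. Their part in the endothelial Eln was not tested.

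**Figure D2:**
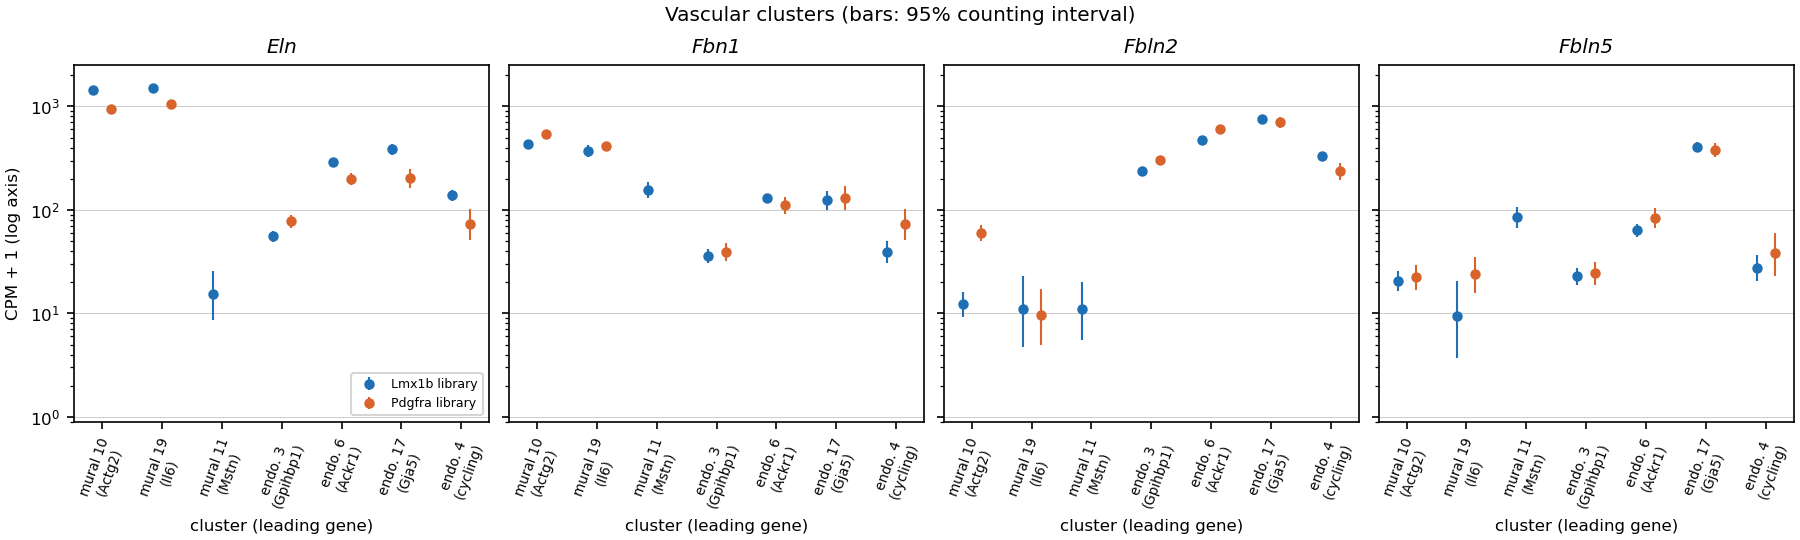
CPM + 1 on a log axis for Eln, Fbn1, Fbln2 and Fbln5 in 3 mural and 4 endothelial clusters, blue for the Lmx1b and orange for the Pdgfra library, with 95% counting intervals. Eln is near 1000 CPM or above in mural clusters 10 and 19 and at 14.4 CPM in mural cluster 11, and Fbln5 is highest in endothelial cluster 17.

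Within mesenchyme, the 10 subclusters (named here by leading genes) differed widely in these genes. In the Lmx1b library, 18 of 100 pairs of gene and subcluster were called higher than in the other mesenchymal cells and 44 lower, where 4.7% and 10.8% of the pairs over all tested genes were. In the Pdgfra library, with 6 subclusters of at least 20 cells, 5 of 60 pairs were higher and 18 lower, against 3.75% and 10.1%. The 8.33% of pairs higher there became 13.3% to 25% under 7 of the alternatives (both other cell filters, the members kept in the clustering, the mean of each cell's CPM, a 1.5-fold threshold and both other resolutions). These comparisons share their cells, since each subcluster is compared with all the rest.

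In 1 bone-lineage subcluster, Lox was called higher and the other members lower. The subcluster led by Dkk1 and Dmp1 (a matrix protein of osteocytes) had 9 of the 10 genes called lower and Lox called higher in both libraries, where 25.2% and 27.2% of tested genes were lower and 3.12% and 3.4% higher, with a median over all tested genes of -0.51 and -0.54 log2. Its levels in the Lmx1b and Pdgfra libraries were 8.36 and 8.10 CPM of Eln, 14.4 and 8.91 CPM of Fbn1 and 5.15 and 8.91 CPM of Mfap5. Lox was 1083 and 982 CPM there, a ratio of 2.27 (2.19 to 2.34) and 2.53 (2.38 to 2.70) to other mesenchyme. The Bglap subcluster (Bglap encodes osteocalcin), seen in 53 cells of the Lmx1b library, had 965 CPM of Lox and 8 of the 10 genes called lower (24.7% of tested genes) and 0 higher (1.93%). The C1qtnf3 and Adamts18 subcluster had 775 and 716 CPM of Lox, with Eln, Fbn1, Fbln1, Fbln5, Mfap4 and Mfap5 called lower in both libraries (10.3% and 10.5% of tested genes) and 0 higher (1.22% and 1.81%). A thinned cell of the Dkk1 and Dmp1 subcluster carried a median of 1 of the 10 genes, in both libraries.

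By summed CPM, Eln was highest in the Sfrp2 and Rspo4 and the Mest and Gldn subclusters. It was 472 CPM in Lmx1b and 336 CPM in Pdgfra cells of the Sfrp2 and Rspo4 subcluster (Wnt pathway genes), 366 and 329 CPM in the Mest and Gldn subcluster, and 233 and 287 CPM in the Lgr5 and Cilp2 subcluster. The mean of each cell's CPM kept this order in the Lmx1b library, at 631, 405 and 230. In the Pdgfra library it was 280, 327 and 335, so the order there depends on how the cells are averaged. The Pi16 and Fmo2 subcluster of the Lmx1b library had 232 CPM (214 to 251), which overlaps the Lgr5 and Cilp2 subcluster there (218 to 250). It held 117 Lmx1b cells but 18 Pdgfra cells. The A2m and Gdpd2 and the Mmp13 and Notum subclusters had 38.6 and 18.2 CPM of Eln in the Lmx1b library. Eln was called higher than in the rest of the mesenchyme in the Sfrp2 and Rspo4 and the Mest and Gldn subclusters of the Lmx1b library, with ratios of 3.80 (3.42 to 4.22) and 3.56 (3.32 to 3.81), where 10.8% and 2.11% of tested genes were. In the Pdgfra library Eln was not called in either, with ratios of 1.58 (1.44 to 1.72) and 1.96 (1.84 to 2.09). There the Sfrp2 and Rspo4 subcluster had 0 members called higher (9.79% of tested genes) and Fbn2, Ltbp2 and Lox lower.

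The fibrillins were placed differently. Fbn1 peaked at 956 CPM in the Pi16 and Fmo2 subcluster (Pi16 marks adventitial fibroblasts) and at 795 CPM in the A2m and Gdpd2 subcluster, in the Lmx1b library, each called higher, where 6.06% and 10.2% of tested genes were. The Pdgfra library had 18 and 6 such cells, with 1139 and 988 CPM. Fbn2 was highest in other subclusters, at 137 CPM in Lmx1b and 60.1 CPM in Pdgfra cells of the Lgr5 and Cilp2 subcluster, 130.0 and 74.7 CPM in the Mest and Gldn subcluster and 105 and 78.4 CPM in cycling cells. In the Sfrp2 and Rspo4 subcluster Fbn2 was nearly absent, at 3.51 CPM (0.72 to 10.2) and 1.79 CPM (0.37 to 5.24), from 3 UMIs in each library. Its ratio to other mesenchyme there was 0.06 (0.01 to 0.16) and 0.03 (0.01 to 0.09), a call of lower shared with 8.39% and 9.29% of tested genes. The same cells had 475 and 356 CPM of Fbn1.

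Among the fibulins, Fbln1 was highest with Fbn1, at 411 CPM in the Pi16 and Fmo2 and 338 CPM in the A2m and Gdpd2 subcluster of the Lmx1b library, and at 261 and 200 CPM in the Sfrp2 and Rspo4 subcluster. Fbln2 was highest in the Lgr5 and Cilp2 subcluster, at 419 and 294 CPM, and was 17.7 CPM in the A2m and Gdpd2 subcluster of the Lmx1b library. In the Pdgfra library its interval in Lgr5 and Cilp2 cells (274 to 316) overlapped those of Mest and Gldn cells (270 to 296) and cycling cells (239 to 289). Fbln5 was highest in the Mest and Gldn subcluster, at 528 and 445 CPM, ratios of 3.49 (3.29 to 3.69) and 2.46 (2.32 to 2.60) to other mesenchyme. The A2m and Gdpd2 subcluster had 309 CPM of Fbln5, and 7 of the 10 genes were called lower in it, Eln and Fbln2 among them, as were 7.97% of tested genes. In the Mmp13 and Notum subcluster of the Lmx1b library 9 of the 10 were called lower, all but Fbln1, where 6.56% of tested genes were lower and 3.46% higher.

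Mfap5 was highest in the Lgr5 and Cilp2 subcluster, at 1145 and 1059 CPM. Mfap4 was 712 CPM (684 to 741) and 651 CPM there. In the Lmx1b library the Sfrp2 and Rspo4 subcluster had 738 CPM of Mfap4 (681 to 798), an interval that overlaps that of the Lgr5 and Cilp2 subcluster. Called higher in the Lgr5 and Cilp2 subcluster were 4 of the 10 in the Lmx1b library (Fbn2, Fbln2, Mfap4 and Mfap5), where 1.72% of tested genes were, and 2 in the Pdgfra library (Mfap4 and Mfap5), where 1.23% were, with 0 called lower in either (7.07% and 5.42%). Ltbp2 was highest in the Mest and Gldn subcluster, at 279 and 235 CPM, ratios of 3.20 (2.96 to 3.46) and 2.42 (2.24 to 2.62). In the Lmx1b library 6 of the 10 genes were called higher in that subcluster (2.11% of tested genes), namely Eln, Fbn2, Fbln5, Mfap4, Mfap5 and Ltbp2, and in the Pdgfra library 2 were (1.24%), namely Fbln5 and Ltbp2, and 0 were lower (6.1% and 3.15%). Cycling cells had 0 members higher (6.38% and 5.05% of tested genes), and Mfap4 lower in the Lmx1b library alone (5.55% there, 4.8% in the Pdgfra library). The Pi16 and Fmo2 subcluster of the Lmx1b library had Fbn2, Mfap4 and Lox called lower (5.99% of tested genes) beside Fbn1, Fbln1 and Mfap5 higher. A thinned cell of the Mest and Gldn subcluster carried a median of 7 of the 10 genes in both libraries.

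**Figure D3:**
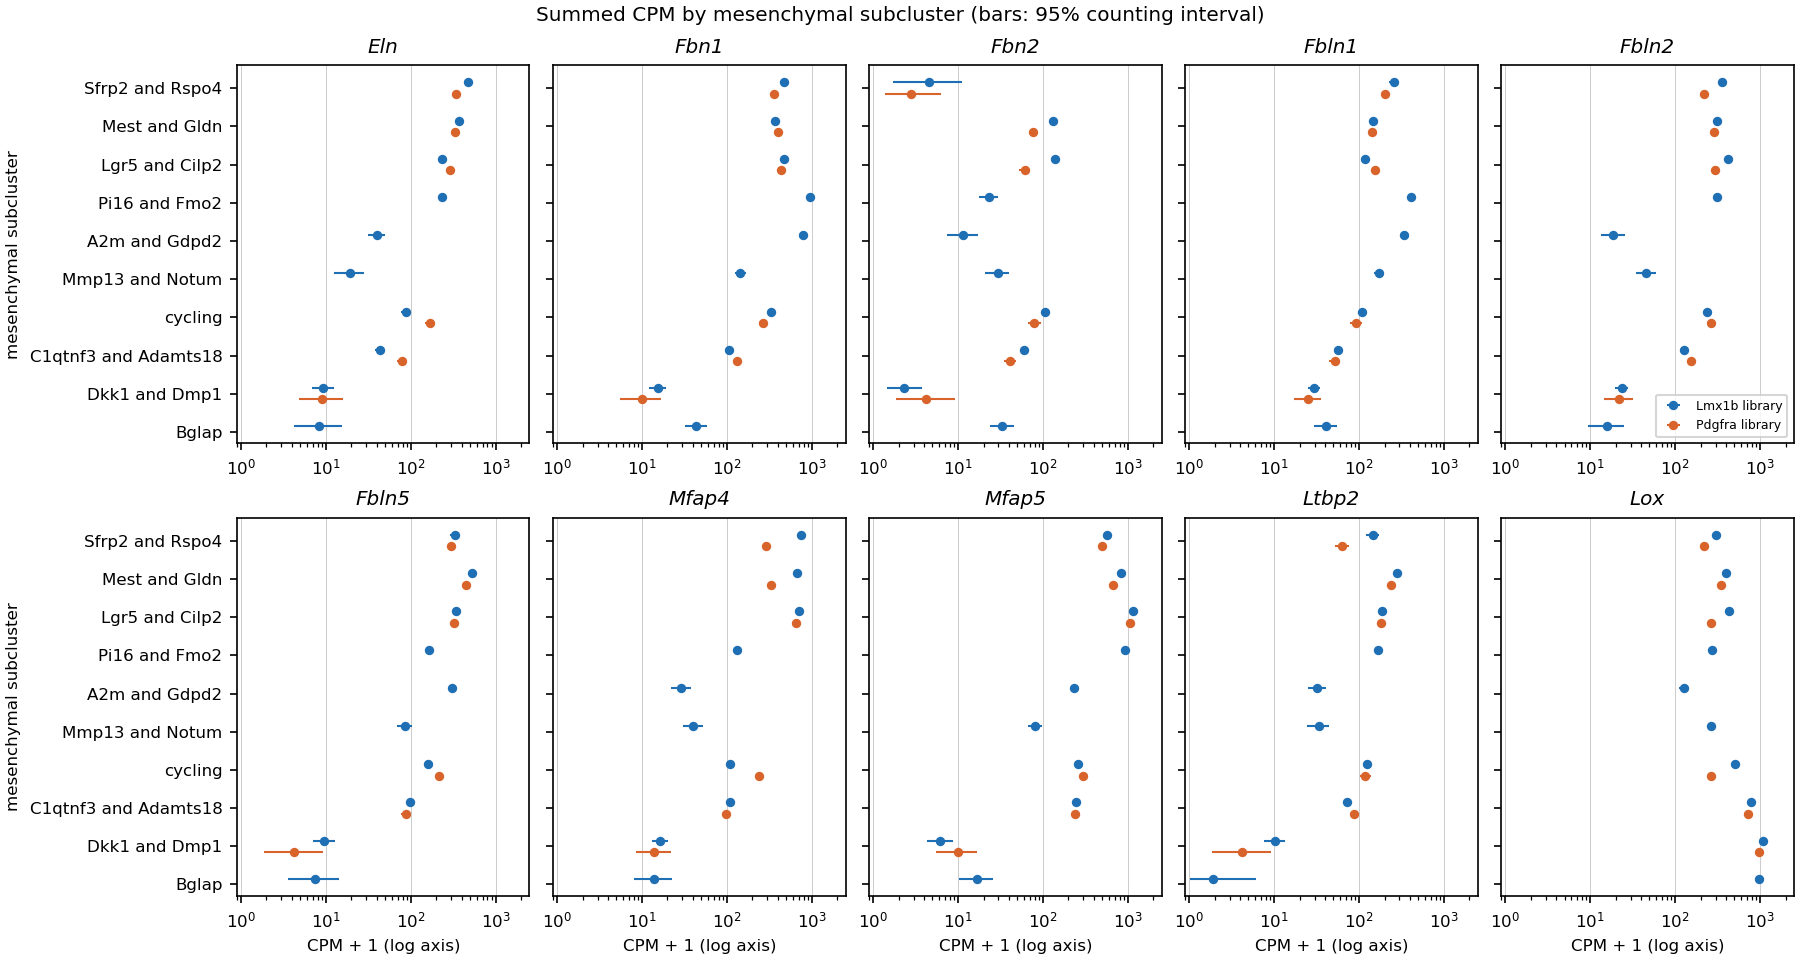
CPM + 1 (log axis) of each gene in the mesenchymal subclusters of at least 20 cells, blue for the Lmx1b and orange for the Pdgfra library, with 95% counting intervals. Dkk1 and Dmp1 cells sit at the left for 9 genes and at the right for Lox, and Fbn2 is at the left in Sfrp2 and Rspo4 cells.

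Labelled and unlabelled mesenchymal cells were compared next. A cell was labelled at 1600 CPM of tdTomato or more, which held for 69 of 994 mesenchymal cells (6.94%) in the Lmx1b and 495 of 579 (85.5%) in the Pdgfra library. In the Pdgfra library it also held for 43.4% of mural, 28.9% of endothelial, 31% of Schwann and 15.2% of T and NK cells, and for 5.83% of macrophages and monocytes. In the same classes of the Lmx1b library it held for 0% to 2.78%. Labelled thus means a tdTomato RNA level, and the origin of labelled cells was not tested. Labelled mesenchyme of the Lmx1b line had 4 of the 10 genes called higher (4.12% of tested genes) and 0 lower (4.87%). These were Eln, with 396 CPM against 119 CPM in the unlabelled cells, a ratio of 3.31 (3.03 to 3.61), Mfap4 at 705 and 222 CPM (3.18, 2.98 to 3.40), Fbln5 at 514 and 179 CPM (2.88, 2.66 to 3.10) and Ltbp2 at 228 and 104 CPM (2.20, 1.97 to 2.46). In the Pdgfra library 9 of the 10 were called higher (9.61% of tested genes), with Mfap5 at 586 and 124 CPM giving the widest gap, a ratio of 4.72 (4.19 to 5.34), and 0 were lower (3.13%). The ratios of Eln, Fbn1, Fbn2, Fbln1 and Fbln2 lay near the threshold, from 2.00 (1.77 to 2.28) for Eln to 2.26 (1.72 to 3.02) for Fbn2. Lox was below 1 in both libraries, with ratios of 0.66 (0.61 to 0.72) and 0.59 (0.56 to 0.62), neither of which reached the threshold. The median over all genes was 0.08 log2 in the Lmx1b and 0.20 log2 in the Pdgfra library.

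The labelled and unlabelled sides were of different make-up. Their median depths were 24090 and 25270 UMIs in the Lmx1b library, and 26871 and 18723.5 UMIs in the Pdgfra library. The 9 bone-lineage markers summed to 6950 CPM in labelled and 26689 CPM in unlabelled Lmx1b mesenchyme, and to 9475 and 61071 CPM in the Pdgfra library, with none at 0 on any side. Labelled cells were 70.5% of the Sfrp2 and Rspo4 subcluster and 19.5% of the Mest and Gldn subcluster in the Lmx1b library, and 1.34% of the C1qtnf3 and Adamts18 subcluster. Unlabelled cells were then weighted to the mix of subclusters of labelled cells, over subclusters with at least 10 cells on both sides. Calls under this weighting used the ratio alone, without an interval. In the Lmx1b library only the Mest and Gldn (23 labelled and 95 unlabelled cells) and the Sfrp2 and Rspo4 subcluster (31 and 13) entered. In them 0 of the 10 were called higher, the ratio of Eln being 1.10 and that of Fbln5 1.54, and Fbn2 was called lower at 0.47. In the Pdgfra library the subclusters left out included Sfrp2 and Rspo4 (109 of 112 cells labelled) and Lgr5 and Cilp2 (86 of 87). The Mest and Gldn subcluster entered there with 10 unlabelled cells. Under the weighting 4 were called higher in that library (Fbln1, Fbln5, Mfap4 and Mfap5), with ratios of 2.10 to 3.82, and the ratio of Eln was 0.92. Counting a cell as labelled from 1 tdTomato UMI gave 0 called higher in the Lmx1b library and turned all 4 ratios below 1 (Eln 0.78, Fbln5 0.64, Mfap4 0.79 and Ltbp2 0.82), and with labelling set at 3200 CPM 0 were called higher in the Pdgfra library. Either other cell filter, or scaling by median-of-ratios size factors, left 4 called higher in the Pdgfra library.

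**Figure D4:**
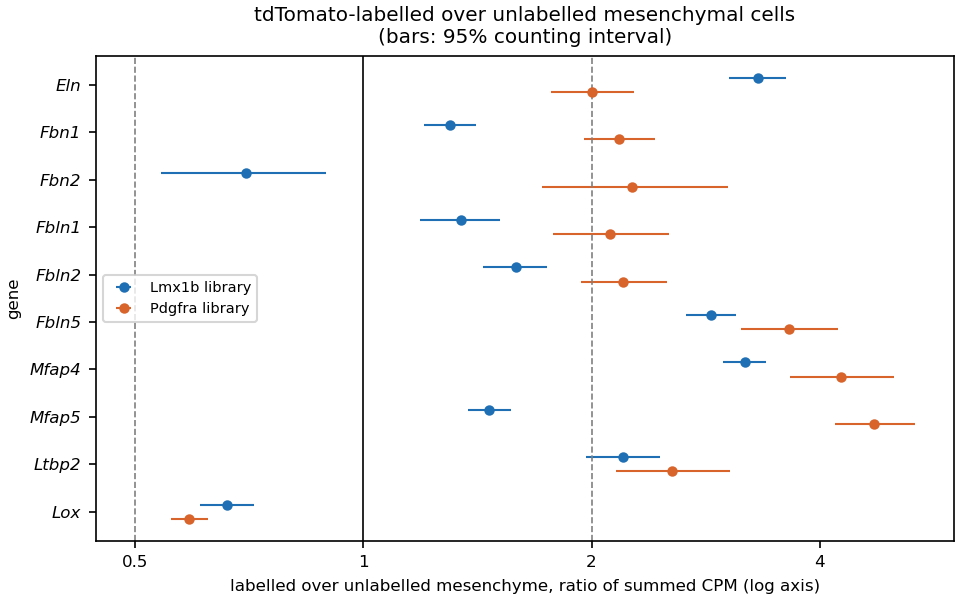
Ratio of summed CPM of labelled to unlabelled mesenchymal cells on a log axis for each gene, blue for the Lmx1b (69 labelled cells) and orange for the Pdgfra library (84 unlabelled cells), with 95% counting intervals; the solid line is a ratio of 1 and the dashed lines are the 2-fold thresholds. All genes but Lox lie to the right of 1 in the Pdgfra library, and Fbn2 and Lox lie to the left in the Lmx1b library.

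Within a subcluster the comparison rested on fewer cells. In the Mest and Gldn subcluster of the Lmx1b library (23 labelled and 95 unlabelled cells), 0 of the 10 were called higher (1.63% of tested genes) and 1 lower (2.34%), Fbn2 at 70.3 and 145 CPM, a ratio of 0.48 (0.35 to 0.65). In the Sfrp2 and Rspo4 subcluster of that library (31 and 13 cells) Ltbp2 (195 and 50 CPM, 3.89, 2.26 to 7.20) and Lox (382 and 163 CPM, 2.34, 1.71 to 3.26) were called higher among 9 measured genes, as were 1.61% of tested genes, and 0 were lower (2.15%). In the Mest and Gldn subcluster of the Pdgfra library only 10 cells were unlabelled, and 5 of the 10 genes were called higher (5.86% of tested genes), Mfap5 at 700.2 and 70 CPM having the widest gap (ratio 10.0, 6.65 to 15.8). Lox was called lower there, at 322 and 725 CPM (0.44, 0.39 to 0.51), as were 4.02% of tested genes.

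Between the libraries, no member was called over the whole mesenchyme. None of the 10 was called higher in the Lmx1b library (0.943% of tested genes) or lower (0.853%), with ratios from 0.60 (0.58 to 0.63) for Eln to 1.36 (1.32 to 1.40) for Lox. With equal weight given to each of the 6 subclusters of at least 20 cells in both libraries, the Eln ratio was 1.00 and that of Fbn2 1.69. That mix left out the Pi16 and Fmo2, Bglap, Mmp13 and Notum, and A2m and Gdpd2 subclusters. These held 117, 53, 66 and 81 cells of the Lmx1b library, so the weighted ratios do not cover the whole mesenchyme. Some members were called within subclusters. In the Sfrp2 and Rspo4 subcluster (44 and 112 cells), Mfap4 had 738 CPM in the Lmx1b and 291 CPM in the Pdgfra library, a ratio of 2.54 (2.25 to 2.86), and Ltbp2 had 144 and 62.1 CPM, a ratio of 2.31 (1.77 to 3.03), where 2.42% of tested genes were called. That subcluster held 17 Xist-positive cells in the Lmx1b and none in the Pdgfra library, and without them the ratios were 3.03 (2.64 to 3.47) and 2.63 (1.91 to 3.59). Mfap4 was higher in the Lmx1b library also in the Mest and Gldn subcluster, with a ratio of 2.04 (1.92 to 2.16), where 0.509% of tested genes were called higher. It was lower in cycling cells, with 109 and 238 CPM, a ratio of 0.46 (0.39 to 0.53), where 2.02% of tested genes were called lower. Fbn2 was higher in the Lgr5 and Cilp2 subcluster of the Lmx1b library, with a ratio of 2.27 (1.89 to 2.74), where 0.918% were called higher. Ltbp2 was higher in the Dkk1 and Dmp1 subcluster of the Lmx1b library, from 9.22 and 3.24 CPM, a ratio of 2.84 (1.03 to 10.9), where 2.19% were called higher. None of the 10 was called in the C1qtnf3 and Adamts18 subcluster (0.703% of tested genes higher and 1.18% lower).

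Outside mesenchyme the libraries were compared in mural, endothelial, cartilage and Schwann cells. In these 4 classes the members called were lower in the Lmx1b library. In mural cells they were Fbln2, at 11.5 and 42.9 CPM, Mfap4 and Ltbp2, among 9 measured (1.49% of tested genes). In cartilage the members called lower were Eln, at 16.0 and 45.5 CPM, Fbn1 and Mfap5, among 9 measured (3.42%). Cartilage was made of cluster 1, with 161 and 78 cells, and cluster 25, with 2 and 47, and within cluster 1 Eln was at 16.1 and 46.4 CPM. The mean of each cell's CPM of Eln in cluster 1 went the other way, at 42.3 and 25.9. An Eln UMI was found in 27.3% and 30.8% of those cells, so the direction depends on how the cells are averaged. In Schwann cells 6 of 10 were called lower in the Lmx1b library (3.1%), namely Fbn2, Fbln1, Mfap4, Mfap5, Ltbp2 and Lox. Summed mesenchymal markers were also lower in the Lmx1b library in mural cells, at 12802 against 18454 CPM, and in Schwann cells, at the levels given above, and their part in these differences was not tested. In endothelium 0 of 6 measured members were called (0.848% higher and 0.757% lower).

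Of the 45 other genes of elastic fibre assembly on the list, 39 were measured in mesenchyme against all other cells, with 16 higher and 5 lower in the Lmx1b and 19 higher and 6 lower in the Pdgfra library. That is 41.0% and 48.7% higher, against 6.83% and 6.5% of all tested genes, and 12.8% and 15.4% lower, near the 13.2% and 12.4% of all tested genes. The median over the measured genes was 0.57 and 0.52 log2. Mfap2, a partner of fibrillin, had 303 and 332 CPM in mesenchyme against 85.7 and 89.9 CPM in mural cells. Of the lysyl oxidase family, Loxl1 was at 217 and 190.3 CPM against 87.2 and 83.7 CPM in mural cells and 2.21 and 7.14 CPM in endothelium, and Loxl2 at 289 and 296 CPM in mesenchyme and 212 and 238 CPM in mural cells. Vcan, a large proteoglycan that binds fibrillin, was at 1389 and 2099 CPM in the Sfrp2 and Rspo4 subcluster against 171 and 197 CPM in other mesenchyme. Ltbp4, which binds TGF-beta and fibulins, went the other way, with 962 and 871 CPM in endothelium, 242 and 273 CPM in mural cells and 88.7 and 57.6 CPM in mesenchyme. The 2 genes most reduced in mesenchyme against all other cells were Mmrn2, an endothelial matrix gene, at 3.62 and 3.04 CPM, and Ctss, an elastolytic cathepsin of macrophages, at 1.99 and 2.14 CPM. The integrin genes Itgav and Itgb5 had 86.2 and 81.9 CPM and 207 and 212 CPM in mesenchyme.

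Labelled mesenchyme had 4 of 38 measured genes of that list called higher and 3 lower in the Lmx1b library, and 13 of 39 higher and 3 lower in the Pdgfra library. For Lmx1b this was 10.5% of the list higher and 7.89% lower, against 4.12% and 4.87% of all tested genes. For Pdgfra it was 33.3% and 7.69%, against 9.61% and 3.13%. Vcan was higher in the Lmx1b library, at 522 and 191 CPM, a ratio of 2.74 (2.54 to 2.95), and Adamtsl5, a microfibril-associated gene, at 41.9 and 14.6 CPM. Slpi, a protease inhibitor gene, was lower in the Pdgfra library, at 25.1 and 239 CPM, and Mmp9, a gelatinase gene, in the Lmx1b library, at 4.51 and 44.6 CPM.

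Over 33 units of class or mesenchymal subcluster by library, of the 45 pairs of members 38 had a Pearson correlation of log2(CPM + 1) of at least 0.5, with a median of 0.68, and the units share their library and depth. The share over pairs of other genes was not computed, so the count cannot be read as particular to this set. The highest was 0.94 for Mfap5 and Ltbp2, and the lowest was 0.13 for Eln and Lox. Among 10942 genes, those most like Eln were Tbxa2r (0.88), Sgip1, C1qtnf2, Adgra2 and Tagln (0.86). Those most like Fbn1 were Fstl1 (0.95), Msx1, Lynx1, Serping1 and Nlgn2, and those most like Mfap4 were Col8a2 (0.95), Dpt, Svep1, Spon1 and Igsf10.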

How the data were processed

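Droplet single-cell RNA sequencing of 2 libraries, 1 per mouse line, was analysed. Per the file headers, Cell Ranger 4.0.0 made the deposited tables, which hold unnormalized UMI counts of each gene in each barcode. The labels' protocols give mm10 plus tdTomato as the reference. How barcodes were chosen as cells is not given in the sources used here.

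The rest was computed here from those counts. Barcodes from 500 genes up, with mitochondrial UMIs of 10% or less, were kept. Either filter removed 3198 Lmx1b and 2658 Pdgfra barcodes. Scrublet's automatic threshold marked 0 and 2 barcodes and so had not worked, and the highest-scoring 0.8% per 1000 barcodes were removed instead (287 and 203, of which 49 and 65 had passed the filters). Clustering used scanpy 1.11.5 (Leiden by python-igraph 0.11.9) on log(1 + counts per 10000) of 2000 variable genes, 30 components, 15 neighbours and resolution 1.0, with no batch integration. Left out of the clustering were the 10 members, the 45 other genes of the pathway list, tdTomato, CreERT2, Xist and Y-linked genes. The 27 clusters were named from fixed marker lists and 4 stayed unnamed. A class needed at least 3 detected markers. The osteoclast cluster was also led by the neutrophil genes S100a8 and S100a9, and the macrophage cluster by antigen presentation genes such as Cd74. Mesenchymal cells were reclustered with 20 components at resolution 0.6, and 1 subcluster of 21 cells led by endothelial markers was set aside. Subclusters were named by leading genes.

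UMIs were summed per class and library to counts per 1000000 (CPM). Shares carry exact (Clopper-Pearson) binomial intervals and ratios exact Poisson ones, both for counting error only, and a count of 0 allows a share of 3 counts. With 1 library per line no test was run and no p-value is given. The folds were checked on simulated data. Upstream sequences came from RefSeq, and positions from GENCODE vM21. Named genes are all 10 members, pathway genes of at least 50 CPM in both mesenchymes or with the 2 highest or 2 lowest called ratios, and the 5 genes most like Eln, Fbn1 and Mfap4, of which the text gives those that bear on a member. The members, the lists and the tdTomato threshold were chosen with earlier results of these data known. Alternatives are in the closing section.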

Additional observations from a re-analysis of the deposited data

Results flagged for a closer look

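A group of 93 cells in the Pdgfra library, 4.03% of that library and absent from the Lmx1b library, was left out of every class because of its low depth (a median of 1937 UMIs) and the lack of class markers among its leading genes. Its best-matching class was mesenchymal, with 10 markers of that class detected. In the comparison of mesenchyme with all other cells it was counted among the other cells. It had 282 CPM of Fbn2 (213 to 366), from 56 UMIs, against 51.0 CPM in the Pdgfra mesenchyme, a signal outside the named classes. Eln was 533 CPM (437 to 645) against 225, and Mfap4 508 CPM (414 to 618) against 279, while Fbn1 was 242 CPM (178 to 320) against 320.1. The imprinted genes H19 and Igf2 were at 604 and 634 CPM against 44.5 and 66.2 in mesenchyme, Xist at 569 CPM against 1.91, and tdTomato at 106 CPM against 2768. The origin of these cells was not tested.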

How the results depend on the processing

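Over all alternatives, 104 of 130 summary values moved by less than 1.5 times, and of 281 called ratios recomputed, 226 were still called in the same direction, 42 were no longer called and 13 turned direction. Under the weightings and the mean of each cell's CPM, calls used the ratio alone, without an interval. The number of members higher in mesenchyme than in all other cells, 8 in each library, was 7 to 9 under the alternatives. The call of Eln as lower in the Lmx1b library (1 gene) was lost (0 genes) under the stricter filter of 1000 genes and 5% mitochondrial UMIs, where its ratio was 1.29, under the mean of each cell's CPM and under median-of-ratios scaling.

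Counts for labelled cells were the least stable. The weighting to the labelled mix covered only subclusters with at least 10 labelled and 10 unlabelled cells. In the Lmx1b library the 4 higher genes became 0 with labelling from 1 tdTomato UMI or with unlabelled cells weighted to the labelled mix, and 1 gene was lower at a 1.5-fold threshold, at 3200 CPM and under the weighting. From 1 UMI the ratios of Eln, Fbln5, Mfap4 and Ltbp2 were 0.78, 0.64, 0.79 and 0.82. In the Pdgfra library the 9 higher genes became 4 under the filter of 200 genes and 25%, the stricter filter, median-of-ratios scaling and the weighting, 5 at 800 CPM and from 1 UMI, and 0 at 3200 CPM. There, 1 gene was lower at 1.5-fold and from 1 UMI. The ratio of Eln was 0.92 under the weighting, of Fbn1 0.98 and Fbln1 0.94 at 800 CPM, of Fbn2 0.99 with the looser filter, 0.89 by mean of cells and 0.36 from 1 UMI, and of Fbln1 and Mfap4 0.87 and 0.94 from 1 UMI.

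Between libraries, 1 gene was higher in the Pdgfra library at 1.5-fold. Of gene and subcluster pairs, 18.0% were higher in the Lmx1b library, becoming 31.0% at 1.5-fold, and 8.33% in the Pdgfra library, becoming 15.7% and 25% under the looser and stricter filters, 17.1% with the members kept in the clustering, 13.3% by mean of cells, 18.3% at 1.5-fold, and 16.0% and 15.6% at resolutions 0.4 and 0.8. The cause was not tested. The weighting of both libraries to 1 mix and the removal of Xist-positive cells were chosen after seeing the data. The number of cells limits the 4 Pdgfra subclusters of under 20 cells, which were not called.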
